A study of Mus musculus with 80 samples.

Results

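Hepatocyte nuclei taken after a 16 h fast were compared with hepatocyte nuclei of fed mice of the same clock time, across all genes that could be tested. The libraries were chosen by their labels: 4 libraries of purified hepatocyte nuclei labelled as fasted for 16 h and 4 labelled as fed ad libitum at the same time, 8 of the 80 libraries of the study. Fasted mice had lost access to food at zeitgeber time (ZT) 12, the start of the dark phase, so that all 8 livers were taken at ZT4, early in the light phase. All mice were female and carried HEP-INTACT, an affinity tag on the nuclear envelope of hepatocytes by which nuclei are pulled from a liver homogenate on beads. No source used here gives the promoter that drives the tag or the number of mice behind a library, and the p-values therefore measure the spread from library to library. The study also sampled hepatocyte nuclei after 3, 8 and 24 h of fasting, macrophage nuclei from a second mouse line, and pools of whole-liver nuclei, which enter below only where a difference is tested or shown beside the result.

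Hepatocytes carry out most of the liver's metabolism. In a fasted mouse, fatty acids released from adipose tissue reach the liver and activate the nuclear receptor PPARα, whose target genes encode the enzymes of fatty acid oxidation and ketone body formation, while falling insulin lowers the activity of SREBP transcription factors that drive sterol and fatty acid synthesis. Glucagon and glucocorticoids promote glucose production over the same period. Nuclear RNA, sequenced here without selection for polyadenylated transcripts, holds many unspliced transcripts and so lies closer to current transcription than cytoplasmic messenger RNA does.

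Each library held between 17194264 and 23271481 counted reads in fasted and between 14886585 and 21756248 in fed nuclei. Of 20105 genes in the table, 12942 had enough counts to be tested. Levels are given below as CPM (counts scaled to one common library size with TMM factors), listed as 4 values in the order of library 1 to 4 of each group, and they compare libraries, not genes, because they are not divided by gene length. Fasted library 3 stood apart: on the first principal component of the 8 libraries, which carried 43.9% of their variance, it lay at -65.0, against -15.6, -16.2 and -31.8 for the other fasted libraries and 22.4 to 37.4 for the fed libraries. It was the highest fasted library for 761 of the 1236 genes that rose and the lowest for 563 of the 1107 that fell. On the second component, with 17.6% of the variance, fasted library 3 (-31.3) and fed library 3 (-36.7), which come from the same run of library numbers, lay below the other 6 libraries (-5.75 to 32.9).

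Summed over the marker lists, hepatocyte markers came to 14803 to 21384 CPM in fasted and 19730 to 22560 CPM in fed libraries (24 markers); 1 of the 24 rose and 4 fell, with a median log2 fold change of -0.27, and without fasted library 3 1 rose and 1 fell. Albumin (Alb), the liver's main secreted protein, averaged 1205 ± 531 CPM in fasted and 2352 ± 585 CPM in fed nuclei (SD, n = 4 each) and did not pass the test (log2 fold change -0.97 ± 0.41, SE), though it passed without fasted library 4 (edgeR adjusted p = 0.043). The Kupffer cell and macrophage markers came to 220 to 350 CPM in fasted and 231 to 356 CPM in fed libraries (23 markers), and the sinusoidal endothelial markers to 220 to 276 CPM in fasted and 241 to 285 CPM in fed libraries (20 markers). Stellate cell markers came to 147 to 335 CPM in fasted and 285 to 326 CPM in fed libraries (20 markers). Of 10 bile duct markers the sum was 298 to 446 CPM in fasted and 516 to 698 CPM in fed libraries. In the unpurified pools of the same line, scaled by total counts, they came to 353 CPM fasted and 480 CPM fed. The macrophage markers came to 795 and 815 CPM in those pools, and the endothelial markers to 1635 and 1686 CPM. Bile duct markers were thus not lower in purified fed nuclei than in the fed pool. Of the 3 monocyte and neutrophil markers and the 3 lymphocyte markers with enough counts, none passed the test, and the rest of those lists were too low to test. Among the markers of other cells, 4 rose (Marco of macrophages, Lyve1 and Stab1 of endothelium, Pdgfra of stellate cells) and 4 fell (Siglec1 of macrophages, Col3a1 and Reln of stellate cells, Pkhd1 of bile ducts). Stab1 did not pass without fasted library 3 (edgeR adjusted p = 0.31), fed library 1 (edgeR adjusted p = 0.078) or fed library 4 (edgeR adjusted p = 0.062), and Siglec1 did not pass without fasted library 3 (edgeR adjusted p = 0.062), fasted library 4 (edgeR adjusted p = 0.053) or fed library 4 (edgeR adjusted p = 0.056). Their part in the results below was not tested. In bulk nuclei, fewer nuclei of a type and less RNA per nucleus cannot be told apart.

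At 16 h, 2343 genes passed the test (18.1% of those tested; edgeR quasi-likelihood F-test, Benjamini-Hochberg adjusted p under 0.05). Of these, 1236 were higher in fasted nuclei (9.55%) and 1107 lower (8.55%). Without fasted library 3, 1485 genes passed, 742 higher and 743 lower, and of those 1361 were also called with it. A fit to the 8 libraries alone called 885, of which 399 were higher and 486 lower. The counts before it rest on a spread estimated from the hepatocyte libraries of 3, 8, 16 and 24 h together. The fasted and fed libraries did not overlap for 2049 genes (15.8%), of which 1554 were among the genes that passed. A log2 fold change above 2 was found for 99 of the genes that rose, and one below -2 for 98 of those that fell. The median log2 fold change of all genes tested was 0.0075, and the medians of gene lists below are to be read against it. Counts of list members that rose or fell are likewise to be read against 9.55% and 8.55% of all genes tested.

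Among the genes with the highest log2 fold changes and no overlap were Cidec, Cyp4a14, Cyp4a10 and Plin4, which act on fatty acids or lipid droplets. Cidec, a lipid droplet protein that lets droplets grow (chr6:113424634-113435760, mouse build mm10), stood at 13.03, 2.09, 19.6 and 5.38 CPM in fasted libraries, against 0.237, 0.478, 0.0614 and 0.224 CPM in fed ones (log2 fold change 5.30 ± 0.73, adjusted p = 1.03e-05). All 4 fasted libraries lay above the highest fed library, with fasted library 2 the lowest of them and fasted library 3 the highest. Cyp4a14, an omega-hydroxylase of fatty acids (chr4:115486200-115496141), stood at 530.3, 1308, 1433 and 1450 CPM in fasted libraries, against 31.7, 41.2, 10.5 and 77.2 CPM in fed ones (4.87 ± 0.49, adjusted p = 7.59e-08). Its near copy Cyp4a10 rose by 4.14 on the log2 scale, and reads of the Cyp4a copies may not be separable. Fgf21, a hormone secreted by the fasting liver, stood at 2.87, 9.59, 3.82 and 6.01 CPM in fasted libraries, against 0.142, 0.239, 0.246 and 0.269 CPM in fed ones, with every fasted library far above the highest fed library (4.604 ± 0.50, adjusted p = 2.37e-07).

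Several of the genes at the high end were highest in fasted library 3. Treh, which encodes trehalase, stood at 0.939, 0.459, 9.46 and 0.625 CPM in fasted libraries, against 0.0474, 0.120, 0.123 and 0.0448 CPM in fed ones; its log2 fold change of 5.11 ± 1.15 became 2.98 without fasted library 3, and its call was lost (edgeR adjusted p = 0.069). Npnt and Bmper, an extracellular matrix protein and a secreted regulator of bone morphogenetic proteins, stood at 10.7, 15.2, 83.1 and 15.3 CPM and 98.6, 119.8, 625 and 221 CPM in fasted libraries, against 1.80, 2.15, 2.03 and 2.29 CPM and 13.5, 16.3, 26.1 and 15.6 CPM in fed libraries. For these genes fasted library 3 was the highest by far, yet the other 3 fasted libraries also lay above all fed libraries, and the log2 fold changes without it were 2.73 and 3.04, both with adjusted p under 0.05. Chrdl2, a secreted binding protein of bone morphogenetic proteins, had a log2 fold change of 3.97 ± 0.64 at a low level (2.09 against 0.127 CPM, fasted against fed), and Plin4, a lipid droplet coat protein, of 3.77 ± 0.44.

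At the low end, Chrna4, a subunit of the nicotinic acetylcholine receptor, stood at 0.221, 0, 0.0382 and 0.144 CPM in fasted libraries, against 17.7, 60.0, 18.2 and 22.6 CPM in fed ones (-8.19 ± 1.12, adjusted p = 9.52e-06). Ptgds, the lipocalin-type prostaglandin D synthase, stood at 0.0552, 0.255, 0.0763 and 0.240 CPM in fasted libraries, against 15.02, 12.9, 6.94 and 11.8 CPM in fed ones (-6.19 ± 0.50, adjusted p = 1.32e-09). Both were near the limit of detection in every fasted library and well measured in every fed library. Slc22a7, the organic anion transporter OAT2, also fell, with 0.828, 0.204, 0.229 and 0.0481 CPM in fasted libraries, against 9.001, 7.41, 5.16 and 6.99 CPM in fed ones (-4.49 ± 0.49). The other 7 of the 10 lowest genes belong to sterol synthesis or its control. The 10 were taken among called genes without overlap and with a mean of at least 1 CPM. Genes with model names, such as Gm or Rik symbols, were left out.

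**Figure D1:**
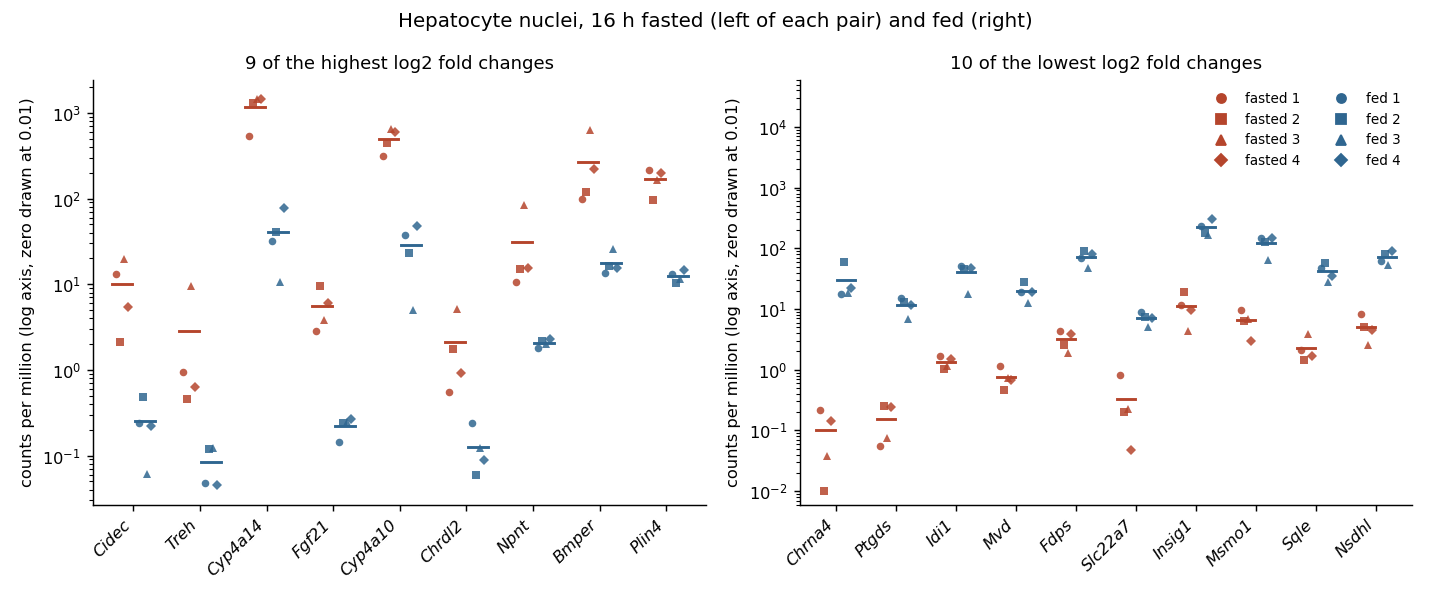
CPM per library, on a log axis, of 9 of the 10 highest and of the 10 lowest log2 fold changes taken by the rule for named genes. Each gene passed with no overlap and had a mean of at least 1 CPM. The 4 fasted libraries are on the left, the 4 fed libraries on the right, with a line at each mean. Fasted library 3 (triangle) is the highest fasted point for Cidec, Treh, Cyp4a10, Chrdl2, Npnt and Bmper, and is not for Cyp4a14, Fgf21 and Plin4.

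Sterol synthesis genes fell almost throughout. Of 9 genes of the mevalonate arm, which leads from acetyl-CoA to farnesyl diphosphate, 8 fell and none rose, with a median log2 fold change of -2.91; the exception was Ggps1, which branches off to geranylgeranyl diphosphate. All 12 genes from squalene to cholesterol fell, with a median of -2.51. These counts stand beside 8.55% of all genes tested. Fdps, farnesyl diphosphate synthase (chr3:89093588-89101967), stood at 4.36, 2.55, 1.91 and 3.89 CPM in fasted libraries, against 69.3, 91.4, 46.7 and 79.2 CPM in fed ones (-4.51 ± 0.34, adjusted p = 1.15e-09). Idi1, isopentenyl diphosphate isomerase (chr13:8885606-8892396), stood at 1.66, 1.02, 1.14 and 1.49 CPM in fasted libraries, against 50.9, 45.9, 17.9 and 47.0 CPM in fed ones (-4.93 ± 0.44). No fasted library reached the lowest fed library for either gene.

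The fall was not of the same size along the pathway. Hmgcs1, which joins acetyl-CoA to acetoacetyl-CoA at the start of the arm, stood at 17.9, 24.2, 17.0 and 33.0 CPM in fasted libraries, against 227, 177, 89.8 and 267 CPM in fed ones (log2 fold change -3.04 ± 0.34). Mvd, the decarboxylase that makes isopentenyl diphosphate, had -4.71 ± 0.37, and the kinases Mvk and Pmvk had -2.91 ± 0.32 and -1.90 ± 0.29. In the squalene branch, Msmo1 and Nsdhl, which take part in removing the methyl groups at carbon 4, and Sqle, squalene epoxidase, had log2 fold changes of -4.23 ± 0.37, -3.82 ± 0.42 and -4.18 ± 0.47. Lss, lanosterol synthase, and Cyp51, lanosterol demethylase, had -2.50 ± 0.26 and -3.67 ± 0.36. Some genes of late steps changed less: Dhcr7, a reductase of the final steps, had -1.85 ± 0.24, and Ebp and Hsd17b7 had -0.74 ± 0.16 and -0.72 ± 0.23. Hsd17b7 did not pass without fasted library 1 (edgeR adjusted p = 0.07), fasted library 4 (edgeR adjusted p = 0.071), fed library 1 (edgeR adjusted p = 0.13), fed library 2 (edgeR adjusted p = 0.063) or fed library 4 (edgeR adjusted p = 0.073). Whether these sizes differ from each other was not tested.

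**Figure D2:**
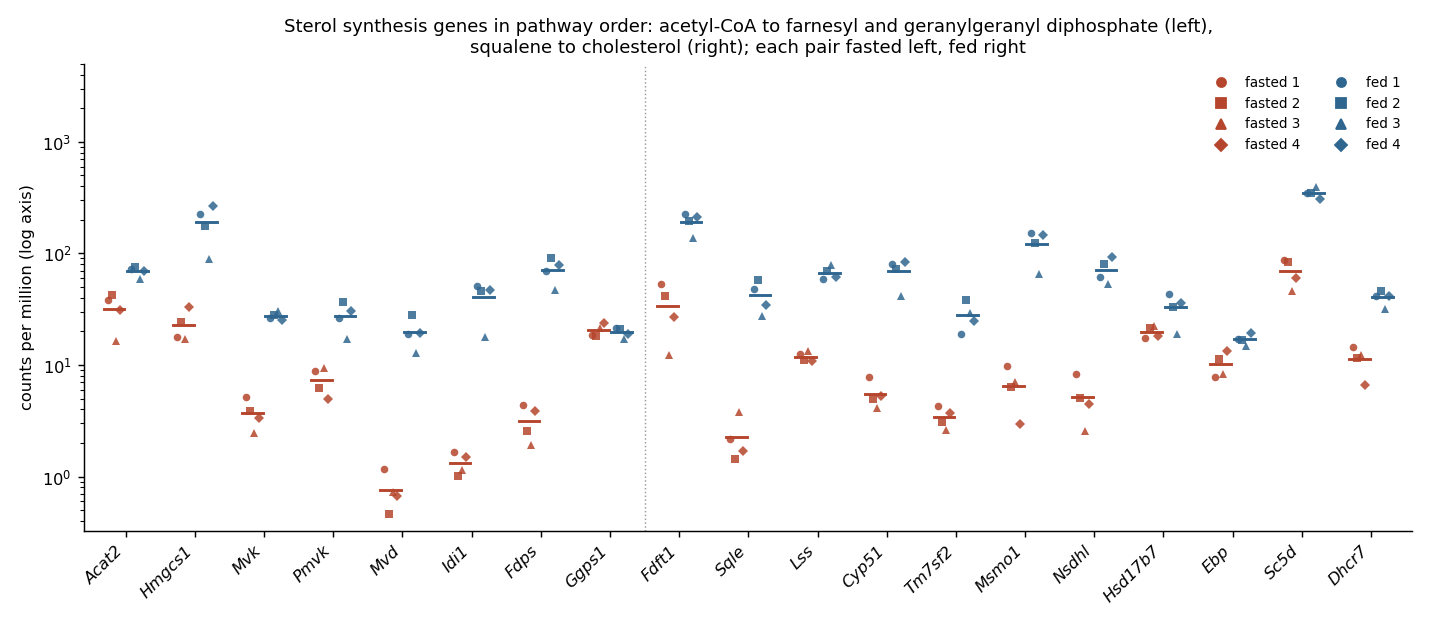
CPM per library, on a log axis, of 19 of the 21 sterol synthesis genes tested, in pathway order, with fasted libraries left and fed libraries right in each pair and a line at each mean. The fasted points lie below all fed points for every gene shown except Ggps1, and Hsd17b7, whose groups overlapped.

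Genes that control the pathway fell with it. Of 11 genes of SREBP control and LDL uptake, 7 fell and 1 rose, with a median log2 fold change of -1.39. Insig1, which holds SREBP in the endoplasmic reticulum when sterols are plentiful, stood at 11.9, 18.9, 4.43 and 9.61 CPM in fasted libraries, against 232, 182, 168 and 302 CPM in fed ones (-4.31 ± 0.34, adjusted p = 1.32e-09). Its relative Insig2 moved the other way, with 383, 461, 1374 and 475 CPM in fasted libraries, against 162, 112, 149.8 and 209 CPM in fed ones (2.09 ± 0.37, adjusted p = 2.42e-04). Stard4, a carrier of cholesterol between membranes, had a log2 fold change of -2.91 ± 0.30. The transcription factors themselves also fell, with log2 fold changes of -2.83 ± 0.30 for Srebf1 and -1.39 ± 0.15 for Srebf2, as did their escort protein Scap (-0.88 ± 0.17). Srebf1 overlaps Rai1 in the table.

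Promoters of 3 of these genes are shown because the genes of the pathway moved together and are known targets of SREBP, which acts with the CCAAT-binding factor NF-Y. The sequences are the 250 bases before the start of each gene, from RefSeq, build GRCm38.p6 (the build also known as mm10). Capitals mark each CCAAT on either strand (ATTGG on the strand shown) and each TCACNCCAC, a core of the sterol response element, on either strand.
Idi1: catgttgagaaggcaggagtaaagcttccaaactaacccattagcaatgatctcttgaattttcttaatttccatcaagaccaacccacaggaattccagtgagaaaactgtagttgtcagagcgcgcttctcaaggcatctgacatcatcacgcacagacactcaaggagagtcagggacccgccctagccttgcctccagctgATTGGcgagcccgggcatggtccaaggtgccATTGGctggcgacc
Nsdhl: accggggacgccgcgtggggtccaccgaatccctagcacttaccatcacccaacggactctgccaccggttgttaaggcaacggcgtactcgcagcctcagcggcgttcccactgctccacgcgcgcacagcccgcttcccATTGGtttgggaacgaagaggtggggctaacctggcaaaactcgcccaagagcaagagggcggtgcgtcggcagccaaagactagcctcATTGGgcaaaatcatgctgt
Hmgcs1: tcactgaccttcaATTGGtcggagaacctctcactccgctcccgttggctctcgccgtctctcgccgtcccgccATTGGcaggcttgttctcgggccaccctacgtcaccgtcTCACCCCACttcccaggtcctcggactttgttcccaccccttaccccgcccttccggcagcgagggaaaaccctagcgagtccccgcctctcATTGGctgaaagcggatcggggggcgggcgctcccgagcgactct
These lie at chr13:8885356-8885605 (plus strand), chrX:72918271-72918520 (plus strand) and chr13:119690101-119690350 (plus strand). CCAAT was found 2 times in the Idi1 window, 2 times in the Nsdhl window and 3 times in the Hmgcs1 window, which also held 1 TCACNCCAC. Of the 19 genes of the 3 sterol lists that fell and had a promoter in the RefSeq table, 17 (89.5%) held a CCAAT, against 40.6% of 9938 tested genes. Counted by promoter, since some genes have several, the motif was in 18 of 25 (72.0%), against 33.8% of all 32851 promoters of the same length. TCACNCCAC was found in 1 of the 19 genes (5.26%), against 1.33% of tested genes, and in 1 of the 25 promoters (4.0%), against 1.05% of all promoters. Among all tested members of the 3 lists with a promoter, fallen or not, 20 of 24 genes (83.3%) held a CCAAT, the 1 that rose among them. A match describes the letters in the window and does not show that a factor binds there.

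Genes of fatty acid synthesis fell as a group. Of 17 tested, 12 fell and none rose, and the median log2 fold change was -0.91. Acly, ATP citrate lyase, which supplies acetyl-CoA, stood at 59.4, 75.5, 76.7 and 74.7 CPM in fasted libraries, against 509.8, 730.3, 363 and 287 CPM in fed ones (-2.72 ± 0.29, adjusted p = 1.14e-07). Fasn, fatty acid synthase, stood at 32.5, 30.2, 175 and 55.1 CPM in fasted libraries, against 488, 849, 331 and 309 CPM in fed ones (-2.75 ± 0.49, adjusted p = 2.64e-04). Neither overlapped between the groups. Scd1, the desaturase that makes oleate, had a log2 fold change of -2.46 ± 0.52, Acss2, which makes acetyl-CoA from acetate, -1.81 ± 0.39, and the desaturases Fads1 and Fads2 -1.45 ± 0.17 and -0.76 ± 0.20. Acaca, acetyl-CoA carboxylase, changed least of the genes named here (-0.69 ± 0.23), its libraries overlapped, and it did not pass without fasted library 1 (edgeR adjusted p = 0.1), fasted library 2 (edgeR adjusted p = 0.11), fed library 2 (edgeR adjusted p = 0.11) or fed library 3 (edgeR adjusted p = 0.11). Mlxipl, which encodes the glucose-sensing factor ChREBP, fell with a log2 fold change of -1.32 ± 0.18. Thrsp, a lipogenic factor that responds to thyroid hormone, stood at 1.33, 1.22, 8.24 and 0.529 CPM in fasted libraries, against 75.8, 106, 8.16 and 13.5 CPM in fed ones. Fasted library 3 and fed library 3 had nearly the same Thrsp level, so that the groups overlapped at that pair.

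Genes of triglyceride assembly moved in both directions, 4 higher and 2 lower of 12, and without fasted library 3 the counts were 2 higher and 2 lower. The list's median log2 fold change was 0.10 with that library and -0.12 without it. Mogat1, a monoacylglycerol acyltransferase, was barely detected in fed libraries, with 0.663, 1.07, 0.763 and 0.529 CPM in fasted libraries, against 0.237, 0, 0 and 0.0448 CPM in fed ones (3.19 ± 0.77). Agpat3, an acyltransferase of phosphatidic acid synthesis, rose (0.90 ± 0.17), and Dgat2, which makes triglyceride, fell (-0.88 ± 0.16). Dgat1, the other enzyme of that step, passed with 0.79 ± 0.24, and did not pass without fasted library 3 (edgeR adjusted p = 0.43), fed library 1 (edgeR adjusted p = 0.08) or fed library 4 (edgeR adjusted p = 0.071).

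Fat oxidation genes rose as a group. Of 18 genes of mitochondrial beta-oxidation, 14 rose and none fell, against 9.55% of all genes, with a median log2 fold change of 0.74. The increases were moderate and shared along the pathway. Slc25a20, which carries acylcarnitines into mitochondria, had 0.98 ± 0.17, Cpt2, which reforms acyl-CoA inside, 0.78 ± 0.15, and the acyl-CoA dehydrogenases Acadm, Acadl and Acadvl 0.80 ± 0.19, 0.85 ± 0.14 and 0.75 ± 0.15. Decr1, the reductase for unsaturated fatty acids, stood at 152, 142, 262 and 199.7 CPM in fasted libraries, against 110.0, 70.9, 50.2 and 82.5 CPM in fed ones (1.27 ± 0.22, adjusted p = 1.97e-04). Etfdh, which passes the electrons to ubiquinone, stood at 133, 157, 161 and 145 CPM in fasted libraries, against 76.3, 58.0, 42.8 and 99.8 CPM in fed ones (1.10 ± 0.18). For Decr1 and Etfdh every fasted library lay above every fed library. Cpt1a, the entry step regulated by malonyl-CoA, was smaller and more scattered, at 909, 832, 452 and 367 CPM in fasted libraries, against 467, 412, 255 and 413 CPM in fed ones (0.73 ± 0.22, adjusted p = 0.02), its groups overlapped, and it did not pass without fasted library 1 (edgeR adjusted p = 0.1), fasted library 2 (edgeR adjusted p = 0.076) or fed library 3 (edgeR adjusted p = 0.074).

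Of 13 genes of peroxisomal oxidation, 4 rose and none fell, with a median of 0.21. Crat, carnitine acetyltransferase, stood at 53.2, 87.2, 121 and 60.7 CPM in fasted libraries, against 10.8, 12.5, 10.99 and 16.9 CPM in fed ones (2.65 ± 0.22, adjusted p = 2.00e-09), with no overlap. Ehhadh, the bifunctional enzyme, Pex11a, which promotes peroxisome division, and Hsd17b4 also rose (1.70 ± 0.34, 1.46 ± 0.25 and 0.78 ± 0.17).

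Omega-oxidation in the endoplasmic reticulum had 6 of 9 genes higher and 1 lower, with a median log2 fold change of 2.15, and without fasted library 3 the counts were 4 higher and 2 lower. The gene that fell was Cyp4f14 (-1.99 ± 0.31). Acyl-CoA thioesterases, which release free fatty acid and coenzyme A, had 6 of 10 higher and none lower. Acot1, the cytosolic member, stood at 5.36, 14.8, 22.5 and 16.4 CPM in fasted libraries, against 1.85, 1.26, 0.430 and 1.39 CPM in fed ones (3.55 ± 0.39, adjusted p = 2.49e-07), and Acot2, its mitochondrial near copy, had 2.74 ± 0.45. Acot genes lie side by side and are alike in sequence, so that counts may be shared among them. Acat1, which joins acetyl-CoA units in ketone body formation, rose to 249, 277, 282 and 311 CPM in fasted libraries, against 139, 115, 107 and 167 CPM in fed ones (1.08 ± 0.13, adjusted p = 7.43e-07).

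Of 15 other known PPARα targets, 9 rose and none fell, with a median of 1.05. Retsat, a retinol saturase, stood at 50.5, 77.8, 54.5 and 58.1 CPM in fasted libraries, against 6.63, 4.90, 2.46 and 7.31 CPM in fed ones (3.48 ± 0.33, adjusted p = 2.68e-08). Angptl4, a secreted inhibitor of lipoprotein lipase, stood at 32.2, 87.8, 96.8 and 67.5 CPM in fasted libraries, against 16.1, 9.63, 3.25 and 17.8 CPM in fed ones (2.59 ± 0.36, adjusted p = 1.11e-05). Aldh3a2, a fatty aldehyde dehydrogenase, and Slc27a1 and Slc27a2, fatty acid transport proteins, rose by 1.14, 1.10 and 0.94 on the log2 scale. Pdk4, the kinase that shuts pyruvate dehydrogenase in fasting, was variable, at 16.1, 51.4, 31.1 and 30.8 CPM in fasted libraries, against 10.2, 9.03, 10.99 and 23.8 CPM in fed ones, and did not pass (adjusted p = 0.07), though it passed without fasted library 1 (edgeR adjusted p = 0.039) or fed library 4 (edgeR adjusted p = 0.032).

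Genes of the lipid droplet rose in 8 of 13 cases and none fell. Beside Cidec and Plin4, Plin2, the main droplet coat of hepatocytes, had 1.03 ± 0.25. G0s2 and Hilpda, inhibitors of the lipase ATGL, stood at 16.6, 85.9, 42.4 and 29.3 CPM and 0.828, 1.07, 1.95 and 0.721 CPM in fasted libraries, against 14.6, 11.9, 6.998 and 14.9 CPM and 0.0948, 0.478, 0.246 and 0.224 CPM in fed libraries (1.84 ± 0.48 and 2.17 ± 0.53). Every fasted library exceeded the fed libraries for both, by a small margin in fasted library 1 for G0s2, which did not pass without fasted library 2 (edgeR adjusted p = 0.055). Without fasted library 3, 5 of the 13 rose, and without fasted and fed library 3 together 2 did.

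**Figure D3:**
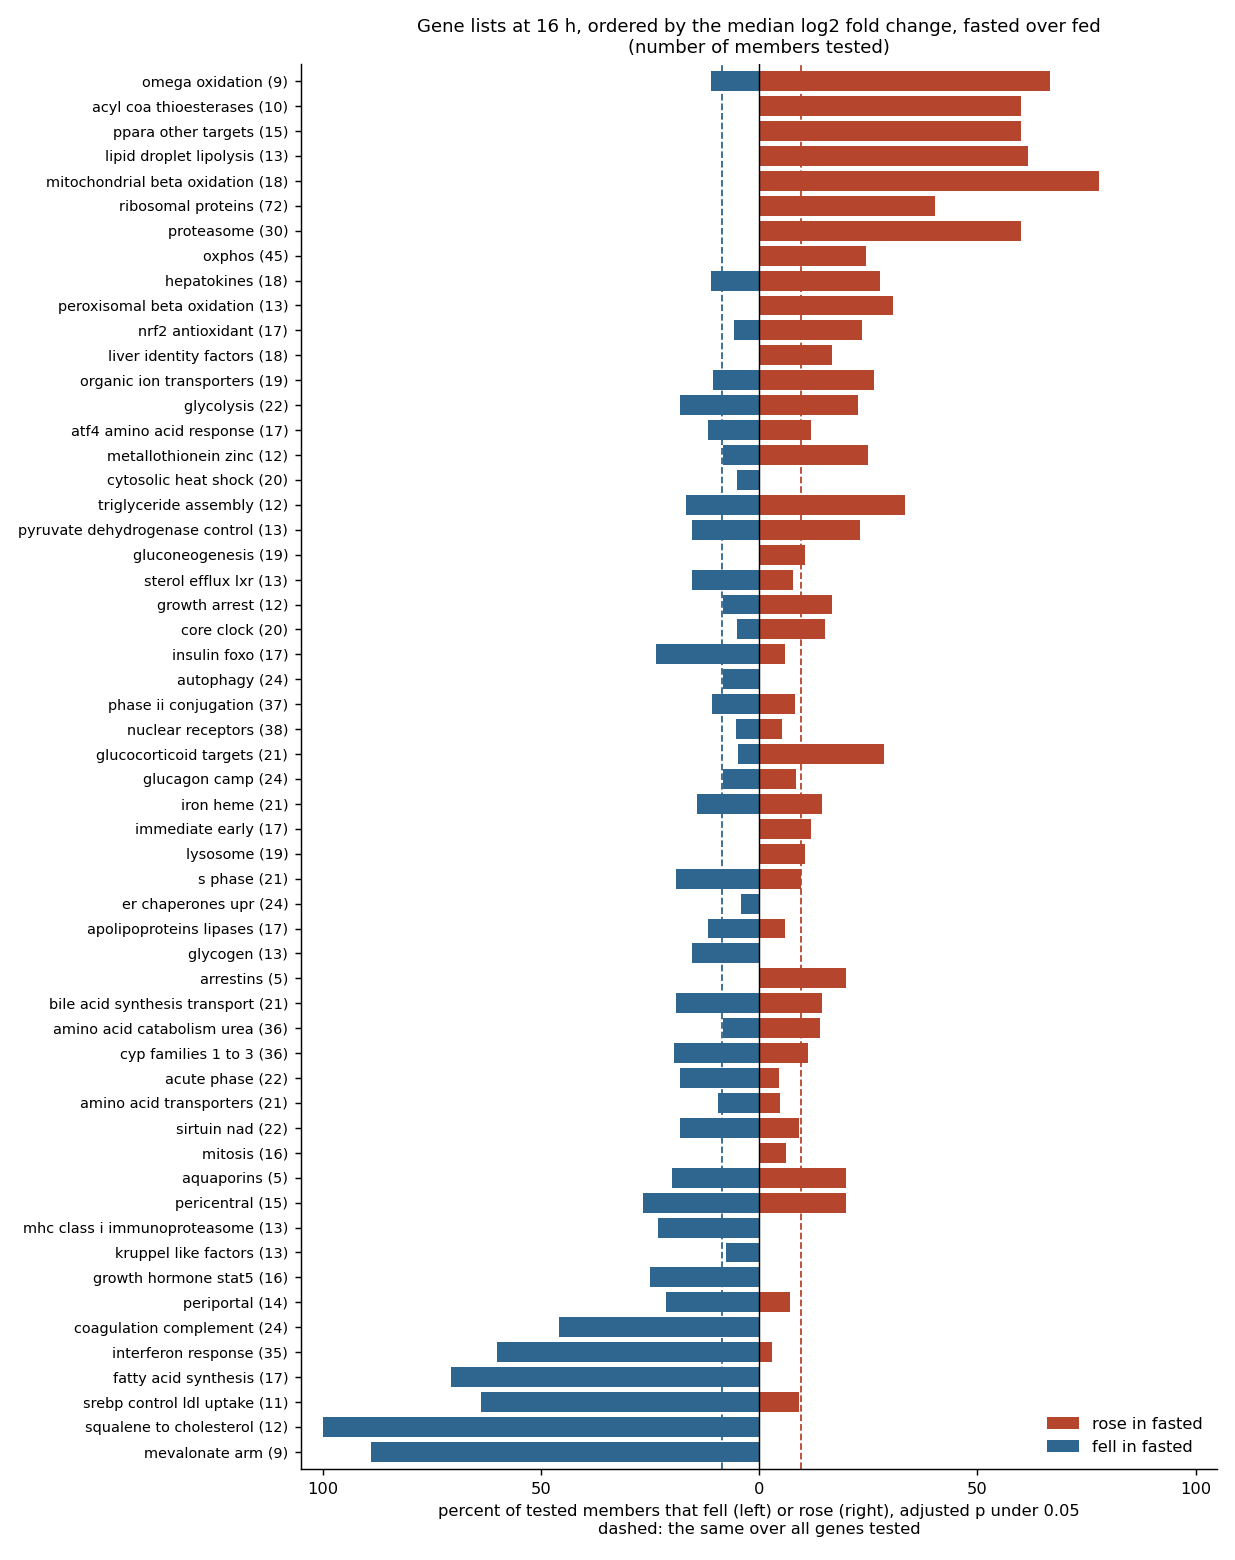
Percent of the tested members of each gene list that fell (bars to the left) or rose (bars to the right) in fasted nuclei, for lists with at least 5 members tested, ordered by their median log2 fold change; dashed lines give the same over all genes, 9.55% and 8.55%. Omega-oxidation, acyl-CoA thioesterases and other PPARα targets stand at the top, sterol and fatty acid synthesis at the bottom and peroxisomal beta-oxidation below ribosomal proteins and the proteasome, while many lists lie near the dashed lines.

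Apolipoproteins and lipid-transfer genes had 1 of 17 higher and 2 lower. Apoa4, an apolipoprotein of triglyceride-rich particles, stood at 24.6, 5.81, 30.6 and 9.13 CPM in fasted libraries, against 2.98, 2.63, 1.29 and 3.45 CPM in fed ones (2.74 ± 0.52, adjusted p = 4.90e-04), and fasted libraries 1 and 3 were the highest. Pltp, the phospholipid transfer protein, fell (-2.13 ± 0.46), and it overlaps Ctsa in the table. In the list of sterol efflux and LXR targets, 1 of 13 rose and 2 fell. Those that fell were Abcg5 and Abcg8, which together form the sterol exporter into bile, which share a promoter region and overlap in the table (-0.66 ± 0.19 and -0.70 ± 0.19). Abcg5 did not pass without fasted library 3 (edgeR adjusted p = 0.076) or fed library 1 (edgeR adjusted p = 0.057), and Abcg8 did not pass without fasted library 3 (edgeR adjusted p = 0.054).

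Bile acid genes had 3 of 21 higher and 4 lower. Cyp2c70, which makes the muricholic acids of mice, stood at 42.3, 30.1, 11.3 and 59.3 CPM in fasted libraries, against 264, 341, 405 and 464 CPM in fed ones (-3.37 ± 0.53, adjusted p = 5.30e-05), with fasted library 3 the lowest and no overlap. Cyp27a1 and Hsd3b7, enzymes of bile acid synthesis from cholesterol, fell by smaller amounts (-0.62 ± 0.17 and -0.68 ± 0.16). Abcb4, the phosphatidylcholine exporter, rose (0.91 ± 0.24). Cyp7a1, which sets the pace of bile acid formation, varied widely, with 349, 399, 43.2 and 108 CPM in fasted libraries, against 92.9, 271, 146 and 113 CPM in fed ones, and did not pass (adjusted p = 0.59).

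Of 19 gluconeogenesis genes, 2 rose and none fell, a share near the 9.55% of all genes that rose, and the estimates of the list ran between -1.20 and 0.99 on the log2 scale. Without fasted library 3, 1 rose and 1 fell. Got2, the mitochondrial aspartate aminotransferase, had 0.56 ± 0.11, and Gpt2, the mitochondrial alanine aminotransferase, 0.99 ± 0.26, which did not pass without fasted library 3 (edgeR adjusted p = 0.068). G6pc, the final step of glucose release, averaged 487 ± 348 CPM in fasted and 731 ± 480.0 CPM in fed nuclei (-0.59 ± 0.49, adjusted p = 0.45). Glycolysis had 5 of 22 higher (3 without fasted library 3) and 4 lower. Pklr, the last step in hepatocytes, and Pfkfb4, a regulator of phosphofructokinase, fell (-1.64 ± 0.41 and -1.22 ± 0.34). Ldha, lactate dehydrogenase, stood at 91.4, 93.6, 66.1 and 81.9 CPM in fasted libraries, against 30.2, 30.9, 30.4 and 44.9 CPM in fed ones (1.29 ± 0.16, adjusted p = 2.01e-06), and Aldoa and Tpi1, enzymes of the reversible middle part, rose (0.75 ± 0.17 and 0.84 ± 0.19).

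Of 13 glycogen genes, 2 fell and none rose. Ppp1r3b, a phosphatase subunit that activates glycogen synthase, stood at 41.5, 73.7, 96.5 and 114 CPM in fasted libraries, against 222, 287, 181 and 268 CPM in fed ones (-1.56 ± 0.26, adjusted p = 1.21e-04). Pygl, the liver glycogen phosphorylase, stood at 108, 97.5, 135 and 122 CPM in fasted libraries, against 242, 263, 167 and 225 CPM in fed ones (-0.96 ± 0.20, adjusted p = 0.0013). Neither overlapped. Genes of pyruvate dehydrogenase control had 3 of 13 higher and 2 lower (1 lower without fasted library 3), among them Pdhx, a structural subunit (0.66 ± 0.12).

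In the insulin and FoxO list, 1 of 17 genes rose and 4 fell. Foxo3 fell to 338, 341, 280.3 and 223 CPM in fasted libraries, against 637, 601, 390.2 and 536 CPM in fed libraries (-0.87 ± 0.17), and Akt2, the insulin-signalling kinase of liver, fell with a log2 fold change of -0.46 ± 0.09. Txnip, an arrestin-related inhibitor of glucose uptake, stood at 12.7, 55.6, 26.8 and 31.96 CPM in fasted libraries, against 8.01, 5.98, 3.13 and 8.97 CPM in fed ones (2.27 ± 0.42, adjusted p = 3.43e-04). Irs2 and Igfbp1, which FoxO1 induces, had log2 fold changes of 0.66 ± 0.35 and 1.19 ± 0.85 and did not pass. Of 24 genes of glucagon and cAMP signalling, 2 rose and 2 fell. Pde4b, which degrades cAMP, stood at 81.3, 101, 93.3 and 94.1 CPM in fasted libraries, against 298, 348, 197 and 218 CPM in fed ones (-1.52 ± 0.21, adjusted p = 1.08e-05), while its relative Pde4d rose (0.86 ± 0.21), as did the adenylyl cyclase Adcy6 (0.62 ± 0.16).

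Glucocorticoid targets had 6 of 21 higher and 1 lower, against 9.55% and 8.55% of all genes, with a median log2 fold change of -0.04. The estimate was below 0 for 11 of the 21, and the estimates ran between -0.95 and 7.11. Without fasted library 3 the counts were 3 higher and 1 lower. Without fasted and fed library 3 together they were 1 higher and 2 lower. The fit to the 8 libraries alone called 2 higher and none lower. Fkbp5, a co-chaperone of the receptor, stood at 122, 111, 187 and 208 CPM in fasted libraries, against 41.4, 49.1, 38.1 and 59.1 CPM in fed ones (1.74 ± 0.45, adjusted p = 0.0072). Cdkn1a, the cell cycle inhibitor p21, stood at 3.86, 7.34, 16.6 and 2.98 CPM in fasted libraries, against 0.663, 0.777, 0.921 and 0.807 CPM in fed ones (3.29 ± 0.74, adjusted p = 0.0025). The receptor gene Nr3c1 fell with a log2 fold change of -0.55 ± 0.15. In the growth hormone list, 4 of 16 genes fell and none rose; without fasted library 3, 1 fell. Ghr, the growth hormone receptor, stood at 3995, 4246, 943 and 4770 CPM in fasted libraries, against 8180, 7754, 5138 and 9362 CPM in fed ones (-1.12 ± 0.31, adjusted p = 0.012), with fasted library 3 the lowest.

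Of 18 hepatokines, hormones and secreted regulators made by the liver, 5 rose and 2 fell. Tsku, a secreted leucine-rich protein, stood at 23.96, 103, 85.4 and 35.7 CPM in fasted libraries, against 8.57, 11.7, 10.8 and 5.51 CPM in fed ones (2.77 ± 0.41, adjusted p = 3.01e-05). Inhbe, which encodes the activin E chain, and Rbp4, the retinol carrier, rose (1.28 ± 0.33 and 0.63 ± 0.17). Fetub, a protease inhibitor, stood at 16.7, 13.6, 11.1 and 19.2 CPM in fasted libraries, against 47.4, 54.8, 26.5 and 55.3 CPM in fed ones (-1.60 ± 0.22, adjusted p = 7.82e-06). None of these genes overlapped between the groups.

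Amino acid catabolism and the urea cycle had 5 of 36 genes higher and 3 lower, and without fasted library 3 the counts were 3 higher and 6 lower. Bhmt, which remethylates homocysteine with betaine, stood at 1235, 655, 858 and 282 CPM in fasted libraries, against 268, 289, 201 and 246 CPM in fed ones (1.59 ± 0.36, adjusted p = 0.0029); fasted library 4 lay within the fed range. Tdo2, which opens the tryptophan ring, stood at 501, 829, 659 and 823 CPM in fasted libraries, against 345, 240.2, 391 and 451 CPM in fed ones (0.98 ± 0.26, adjusted p = 0.0096). Haao and Uroc1, of tryptophan and histidine breakdown, fell (-0.58 ± 0.12 and -0.68 ± 0.18). Tat, tyrosine aminotransferase, averaged 838 ± 588 CPM in fasted and 1355 ± 499 CPM in fed nuclei and did not pass. In the amino acid response list, 2 of 17 rose and 2 fell (1 and 2 without fasted library 3). Atf5, a factor of that response, rose (1.22 ± 0.27). Slc38a3, a glutamine transporter, was among 2 of 21 amino acid transporters that fell (-1.65 ± 0.20).

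Autophagy genes showed 2 of 24 lower and none higher at 16 h, and lysosomal genes 2 of 19 higher and none lower. Over all genes tested, 8.55% fell and 9.55% rose. Without fasted library 3, 1 autophagy gene fell and 1 lysosomal gene rose. Ulk1, the kinase that starts autophagy, passed with -0.64 ± 0.20, and did not pass without fasted library 3 (edgeR adjusted p = 0.062), fed library 1 (edgeR adjusted p = 0.079) or fed library 2 (edgeR adjusted p = 0.12). Of 24 endoplasmic reticulum chaperones and stress genes, 1 fell (Edem1, -0.72 ± 0.15), and of 20 cytosolic heat shock genes 1 fell. Both shares lie below the background of 8.55%.

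Coagulation and complement genes fell in 11 of 24 cases and none rose, against a background of 8.55%, with a median log2 fold change of -0.46. Without fasted library 3, 8 fell, and without fed library 3, 7. F11, coagulation factor XI, stood at 122, 77.1, 46.1 and 73.9 CPM in fasted libraries, against 267, 191, 243 and 227 CPM in fed ones (-1.54 ± 0.24, adjusted p = 5.27e-05). F7, which starts coagulation with tissue factor, stood at 71.4, 60.3, 41.2 and 53.2 CPM in fasted libraries, against 129.7, 114, 104 and 117 CPM in fed ones (-1.04 ± 0.16, adjusted p = 4.36e-05). C8a and C9, components of the membrane attack complex, fell (-1.16 ± 0.27 and -1.55 ± 0.44), and C9 was lowest in fasted library 3, with 90.1, 57.5, 8.59 and 77.0 CPM in fasted libraries, against 149, 139, 162 and 230.3 CPM in fed libraries. F10 and F2, which encode factor X and prothrombin, had -0.93 ± 0.20 and -0.66 ± 0.12. Other plasma proteins divided: of 22 acute phase genes, 4 fell and 1 rose. Hp, haptoglobin, rose (1.05 ± 0.29), and Steap4, an iron and copper reductase, and Saa4 fell (-1.32 ± 0.25 and -1.29 ± 0.30).

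Interferon response genes were lower in fasted nuclei. Of 35 tested, 21 fell and 1 rose, against backgrounds of 8.55% and 9.55%; the median log2 fold change was -0.84, and the estimate was below 0 for 34 of the 35. Without fasted library 3, 17 fell and 1 rose. Zbp1, a sensor of left-handed nucleic acid, stood at 1.49, 1.58, 1.64 and 1.25 CPM in fasted libraries, against 7.44, 8.61, 7.67 and 7.71 CPM in fed ones (-2.39 ± 0.37, adjusted p = 4.99e-05). Ifit1, which binds viral RNA, stood at 1.10, 1.22, 2.18 and 1.06 CPM in fasted libraries, against 4.22, 4.31, 5.22 and 4.12 CPM in fed ones (-1.66 ± 0.33, adjusted p = 7.73e-04). Gbp3, a guanylate-binding protein, stood at 2.10, 1.94, 2.10 and 1.92 CPM in fasted libraries, against 6.82, 6.28, 4.11 and 5.51 CPM in fed ones (-1.49 ± 0.27, adjusted p = 2.31e-04), and reads of the Gbp copies may not be separable. In all 3 genes every fasted library lay below every fed library. Stat2, which carries the type I interferon signal to the nucleus, had a smaller log2 fold change at a higher level, with 130.03, 116, 106 and 117 CPM in fasted libraries, against 166, 192, 222 and 172 CPM in fed ones (-0.68 ± 0.13, adjusted p = 3.05e-04). Irf7, a factor that amplifies the response, had -1.05 ± 0.26. The gene of the list that rose was Parp9, which overlaps Dtx3l in the table (0.42 ± 0.12, with overlapping groups), and it did not pass without fasted library 1 (edgeR adjusted p = 0.069). Ifit1bl2, of the Ifit family but outside this list, also rose, and its values are given below against 8 h. Tagged macrophage nuclei express many of these genes as well: their Zbp1 level averaged 24.7 ± 9.92 CPM in fasted and 50.7 ± 15.04 CPM in fed macrophage nuclei, and the summed macrophage markers of the hepatocyte libraries are given above. Their part in these values was not tested.

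Promoters of 3 interferon response genes are shown because 21 genes of the list fell together and the interferon-stimulated response element is the known site of the complex of STAT2 and IRF9. The sequences are the 250 bases before the gene's start from RefSeq, build GRCm38.p6, and capitals mark each GAAA, any 2 bases and GAAA on either strand (TTTC, any 2 bases and TTTC on the strand shown), a core of that element.
Ifit1: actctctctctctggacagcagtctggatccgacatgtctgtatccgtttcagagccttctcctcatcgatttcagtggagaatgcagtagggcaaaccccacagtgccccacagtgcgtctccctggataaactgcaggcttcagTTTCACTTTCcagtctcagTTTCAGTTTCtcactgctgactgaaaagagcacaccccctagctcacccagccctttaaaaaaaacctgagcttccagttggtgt
Gbp3: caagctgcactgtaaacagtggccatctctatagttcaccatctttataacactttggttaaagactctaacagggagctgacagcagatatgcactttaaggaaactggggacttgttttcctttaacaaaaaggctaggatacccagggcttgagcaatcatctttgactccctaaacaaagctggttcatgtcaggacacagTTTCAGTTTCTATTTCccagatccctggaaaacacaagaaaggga
Stat2: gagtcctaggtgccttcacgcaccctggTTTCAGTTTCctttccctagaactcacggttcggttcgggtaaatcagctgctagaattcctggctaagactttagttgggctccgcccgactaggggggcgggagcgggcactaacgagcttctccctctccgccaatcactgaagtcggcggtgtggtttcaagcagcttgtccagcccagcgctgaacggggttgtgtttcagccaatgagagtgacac
These lie at chr19:34640639-34640888, chr3:142559794-142560043 and chr10:128270248-128270497, all on the plus strand. The Ifit1 and Gbp3 windows held 2 matches each, which overlap each other in Gbp3, and the Stat2 window held 1. Of the 12 genes of the list that fell and had a promoter in the RefSeq table, 9 (75.0%) held the motif, against 3.3% of 9938 tested genes, and so did 9 of their 14 promoters (64.3%), against 2.98% of all 32851 promoters. Among all tested members of the list with a promoter, fallen or not, 13 of 24 genes (54.2%) held the motif. As above, a match describes the letters only.

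Antigen presentation had 3 of 13 genes of MHC class I and the immunoproteasome lower and none higher. Tapbp, which loads peptides on MHC class I, stood at 12.3, 10.9, 9.31 and 9.08 CPM in fasted libraries, against 21.4, 22.2, 20.7 and 21.4 CPM in fed ones (-1.05 ± 0.15, adjusted p = 1.11e-05). Psmb10, an immunoproteasome subunit, fell with overlapping groups (-1.04 ± 0.25). The constitutive proteasome did the opposite: 18 of 30 subunits rose and none fell, with a median of 0.37, and 11 rose without fasted library 3 or without fasted library 4 and 9 without fed library 1, and the fit to the 8 libraries alone called 7. Psmb3, a subunit of the proteasome core, stood at 18.3, 15.1, 24.5 and 22.7 CPM in fasted libraries, against 10.7, 12.3, 10.99 and 12.5 CPM in fed ones (0.80 ± 0.14, adjusted p = 1.86e-04), and Psmd14, the deubiquitinase of the lid, stood at 164, 153, 159 and 201 CPM in fasted libraries, against 89.8, 97.4, 116 and 104.5 CPM in fed ones (0.73 ± 0.15, adjusted p = 0.0012). In both the fasted libraries lay above every fed library.

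Ribosomal protein genes rested more on fasted library 3. Of 72, 29 rose and none fell, with a median of 0.50, and all 72 estimates were above 0. The summed level was 704, 701, 1134 and 881 CPM in fasted libraries, against 591, 624, 671 and 642 CPM in fed libraries, so that the groups did not overlap but fasted library 3 was the highest. Without it, 5 rose, without fasted library 2 45 did, without fasted library 4 15, and without fed libraries 1, 2 and 4 in turn 9, 18 and 12. The median without fasted library 3 was 0.30, and a fit to the 8 libraries alone called 1. Rps9 was among those that passed without it, at 16.3, 14.1, 21.9 and 19.7 CPM in fasted libraries, against 8.81, 9.57, 11.4 and 8.88 CPM in fed ones (0.90 ± 0.19), and Rpl3, with 0.84 ± 0.22, did not pass without fasted library 3 (edgeR adjusted p = 0.084). Ribosomal protein genes have many processed copies in the genome, which can share reads. Genes of oxidative phosphorylation followed a like pattern at a smaller size: 11 of 45 rose and none fell, with a median of 0.23, and 3 rose without fasted library 3, 5 without fed library 1, 3 without fed library 2 and 7 without fed library 4. The fit to the 8 libraries alone called 1 of the 45. Atp5h, a subunit of ATP synthase, kept its call, at 18.5, 20.1, 26.0 and 18.5 CPM in fasted libraries, against 13.1, 12.8, 16.3 and 13.002 CPM in fed ones (0.59 ± 0.14, adjusted p = 0.0031).

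**Figure D4:**
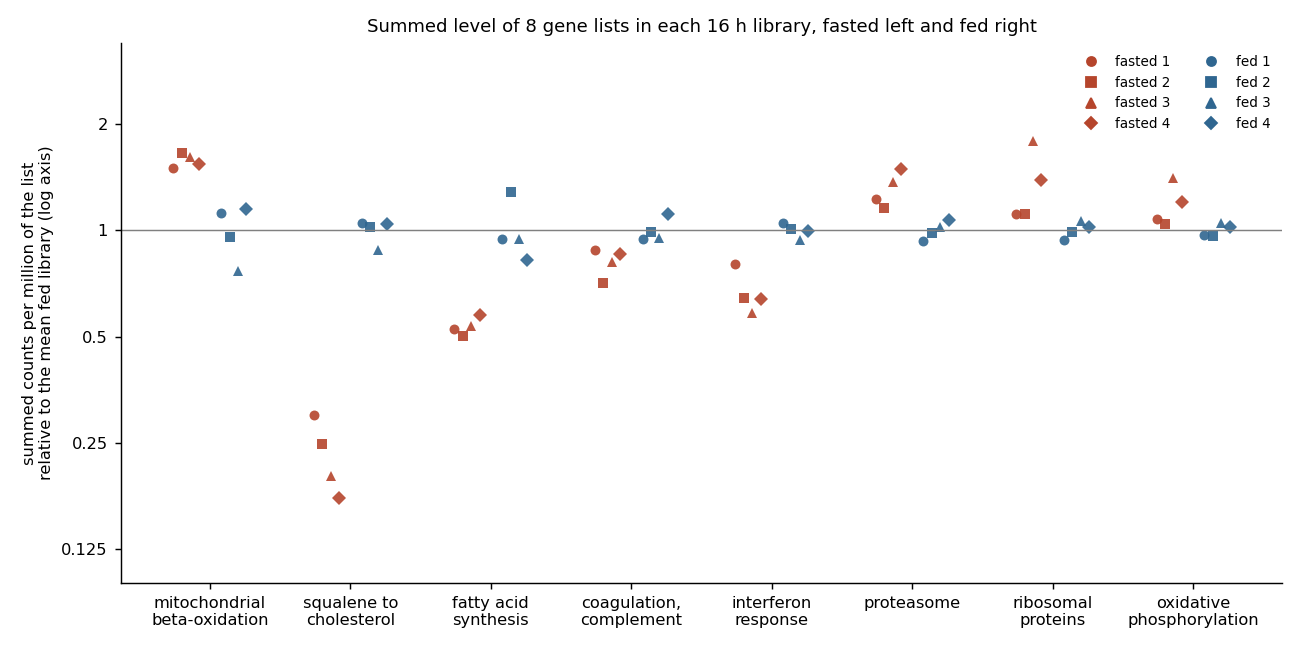
Summed CPM of the members of 8 gene lists in each library, divided by the mean of the 4 fed libraries, on a log axis with fasted libraries left and fed libraries right. The fasted libraries lie at 0.174 to 0.299 for squalene to cholesterol, at 1.5 to 1.66 for mitochondrial beta-oxidation and at 0.585 to 0.801 for interferon response, while for ribosomal proteins they spread between 1.11 and 1.79 with fasted library 3 (triangle) the highest.

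Xenobiotic-metabolising genes moved in both directions. Of 36 cytochromes P450 of families 1 to 3, 7 fell and 4 rose. Cyp1a2, which oxidises caffeine and aromatic amines, stood at 6.52, 13.5, 4.66 and 8.27 CPM in fasted libraries, against 43.8, 31.8, 24.1 and 44.3 CPM in fed ones (-2.14 ± 0.36, adjusted p = 1.49e-04). Cyp2a4, a steroid hydroxylase with a near copy in Cyp2a5, fell (-2.31 ± 0.35). Cyp3a25, of the main drug-metabolising subfamily, stood at 9238, 7830, 8386 and 6653 CPM in fasted libraries, against 3245, 2153, 2888 and 2188 CPM in fed ones (1.62 ± 0.30, adjusted p = 3.44e-04), with every fasted library above every fed library. Conjugating enzymes had 3 of 37 higher and 4 lower: Gstm6 and Gstt1, glutathione transferases, were among those that fell (-1.88 ± 0.35 and -1.18 ± 0.26). The estimates of that list ran between -1.88 and 7.11 on the log2 scale. Organic ion transporters had 5 of 19 higher and 2 lower, with 3 higher without fasted library 3 or without fed library 4. Slco1a1, an uptake carrier for anions, stood at 23.2, 19.9, 6.87 and 27.7 CPM in fasted libraries, against 155, 112, 88.6 and 250.1 CPM in fed ones (-2.97 ± 0.53, adjusted p = 2.50e-04), and Slc22a5, the carnitine carrier, at 66.6, 105.4, 157 and 113 CPM in fasted libraries, against 52.5, 34.9, 22.5 and 34.9 CPM in fed ones (1.61 ± 0.30, adjusted p = 3.94e-04). Of 17 NRF2 and antioxidant genes, 4 rose and 1 fell: Srxn1, sulfiredoxin, rose (0.998 ± 0.21), and Gpx1, glutathione peroxidase 1, fell (-0.90 ± 0.23).

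Nuclear receptors had 2 of 38 genes higher and 2 lower, liver identity factors 3 of 18 higher and none lower, and Krüppel-like factors 1 of 13 lower and none higher. Without fasted library 3, 1 of the identity factors rose, 1 of the nuclear receptors fell and no Krüppel-like factor fell, and the fit to the 8 libraries alone called no identity factor. Pericentral genes, normally expressed around the central vein, had 3 of 15 higher and 4 lower, and periportal genes 1 of 14 higher and 3 lower (5 lower without fasted library 3). Among the pericentral genes, Axin2, a target of Wnt signalling, stood at 79.5, 58.6, 62.9 and 102 CPM in fasted libraries, against 29.1, 37.9, 34.4 and 52.8 CPM in fed ones (0.98 ± 0.25, adjusted p = 0.0065), while Rgn, regucalcin, stood at 25.7, 15.04, 12.1 and 54.6 CPM in fasted libraries, against 73.3, 77.1, 94.1 and 119 CPM in fed ones (-1.76 ± 0.32, adjusted p = 3.09e-04). Among the periportal genes, Cyp2f2 stood at 59.7, 53.6, 45.2 and 42.2 CPM in fasted libraries, against 176, 129, 119 and 105.4 CPM in fed ones (-1.40 ± 0.20, adjusted p = 1.34e-05) and Hsd17b13, a lipid droplet enzyme, rose (0.97 ± 0.17).

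Small groups with mixed or isolated changes included those of water, iron and NAD. Of 5 aquaporins, Aqp4 stood at 5.91, 1.02, 3.01 and 1.78 CPM in fasted libraries, against 0.805, 0.299, 0.307 and 0.314 CPM in fed ones (2.71 ± 0.56), and Aqp8 at 3.48, 2.60, 1.03 and 1.15 CPM in fasted libraries, against 11.7, 15.01, 7.86 and 12.6 CPM in fed ones (-2.54 ± 0.54). Iron and heme genes had 3 of 21 higher and 3 lower, against 9.55% and 8.55% of all genes. Cpox, coproporphyrinogen oxidase, stood at 67.6, 56.3, 89.9 and 84.0 CPM in fasted libraries, against 33.1, 31.1, 37.3 and 41.3 CPM in fed ones (1.06 ± 0.14, adjusted p = 3.85e-06), and Ppox, the next enzyme of heme synthesis, moved the other way, with 22.9, 21.0, 15.95 and 17.1 CPM in fasted libraries, against 31.6, 42.3, 37.1 and 37.9 CPM in fed ones (-0.95 ± 0.15, adjusted p = 4.04e-05). Hamp2, a copy of the iron hormone hepcidin, fell (-2.01 ± 0.57). Sirtuin and NAD genes had 2 of 22 higher and 4 lower (2 lower without fasted library 3), among them Sirt7, a nuclear deacylase (-0.83 ± 0.14). Metallothionein and zinc genes had 3 of 12 higher and 1 lower, and without fasted library 3 the counts were 1 higher and none lower. Mt2 stood at 3.26, 34.3, 30.3 and 5.19 CPM in fasted libraries, against 2.46, 2.75, 3.13 and 5.16 CPM in fed ones (2.43 ± 0.61, adjusted p = 0.0065), high in fasted libraries 2 and 3 and within or near the fed range in fasted libraries 1 and 4. Its neighbour Mt1 is a near copy, and reads may not be separable.

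Of 20 clock genes, 3 rose and 1 fell, and without fasted library 3 none rose and 1 fell. Of 17 immediate early genes 2 rose, among them Fosl2, which stood at 21.9, 20.8, 38.6 and 32.8 CPM in fasted libraries, against 17.2, 16.9, 13.01 and 12.6 CPM in fed ones (0.94 ± 0.17, adjusted p = 3.59e-04). In the growth arrest list 2 of 12 rose and 1 fell, and Gadd45b, a stress-induced gene, stood beside Cdkn1a with 2.04, 7.90, 6.53 and 1.63 CPM in fasted libraries, against 0.332, 0.718, 0.982 and 0.807 CPM in fed ones (2.69 ± 0.56). Of 21 S-phase genes 2 rose and 4 fell, against 9.55% and 8.55% of all genes (1 and 3 without fasted library 3). Among them E2f1, the factor of S-phase entry, and Pola1, a subunit of DNA polymerase alpha, fell (-1.49 ± 0.43 and -0.72 ± 0.16). Of 16 mitosis genes 1 rose, Anln, the actin-binding anillin, from low levels (2.82 ± 0.59). Of 5 arrestin-related genes, only Txnip passed.

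The effect at 16 h was set against that at 8 h by testing the difference of the fasting effects, each taken against fed nuclei of its own time. It differed for 1178 genes (9.1% of those tested), with the effect higher at 16 h for 670 and lower for 508. Higher and lower refer to the signed log2 fold change. For genes that fell, a lower effect is thus a deeper fall. At 8 h and 24 h the clock time also differed from that at 16 h. Length of fast and time of day therefore cannot be told apart in these differences. The rule for named genes gave Cyp7a1, Cyp2c69, a cytochrome of the 2c cluster, and Ifit1bl2, of the Ifit family, as the highest. Cyp7a1 had a log2 fold change of 0.53 ± 0.59 at 16 h and -4.69 ± 0.70 at 8 h (difference 5.22 ± 0.90, adjusted p = 6.41e-04). Ifit1bl2 rose at 16 h (2.68 ± 0.50) and had -1.64 ± 0.65 at 8 h (difference 4.32 ± 0.81), and for Cyp2c69 the difference was 6.17 ± 1.4995. The lowest were Maff, a stress-induced transcription factor (difference -4.19 ± 0.58, adjusted p = 6.15e-05), Lpin1, the phosphatidate phosphatase of lipid synthesis (-4.54 ± 0.98, adjusted p = 0.0045), and Rgs16, a regulator of G protein signalling (-4.14 ± 1.02, adjusted p = 0.011). All 3 of these had positive effects at 8 h and did not pass at 16 h.

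Peroxisomal and autophagy genes were among those whose effect was lower at 16 h than at 8 h. Of 13 peroxisomal genes, 6 had a lower effect at 16 h than at 8 h and none a higher effect. This count and those of the lists below stand beside 508 lower and 670 higher of all 12942 genes tested. Ehhadh had 1.70 ± 0.34 at 16 h and 4.07 ± 0.38 at 8 h (difference -2.37 ± 0.48, adjusted p = 0.0025), and Pex11a had 1.46 ± 0.25 at 16 h and 3.22 ± 0.26 at 8 h (difference -1.76 ± 0.34). Of 24 autophagy genes, 11 had a lower effect and 1 a higher effect at 16 h: Ulk1 had -0.64 ± 0.20 at 16 h and 0.86 ± 0.20 at 8 h (difference -1.50 ± 0.28, adjusted p = 0.0011). Txnip averaged 31.7 ± 17.9 CPM in fasted and 6.52 ± 2.58 CPM in fed nuclei at 16 h and 174 ± 45.6 CPM in fasted and 4.802 ± 1.40 CPM in fed nuclei at 8 h, which gave a difference of effects of -2.90 ± 0.58 (adjusted p = 0.0025). Mt2 had a difference of -3.85 ± 1.01 (adjusted p = 0.016). The sterol genes from squalene to cholesterol had a median log2 fold change of -2.51 at 16 h and -3.01 at 8 h and no difference past the threshold among the 12 genes. In the mevalonate arm Hmgcs1 had a lower effect at 16 h (-3.04 ± 0.34) than at 8 h (-1.33 ± 0.32; difference -1.72 ± 0.45), and Pmvk a higher effect (-1.90 ± 0.29 at 16 h and -3.52 ± 0.31 at 8 h). Of 35 interferon genes, 7 had a higher effect at 16 h and 2 a lower effect. Zbp1 had -2.39 ± 0.37 at 16 h and -4.27 ± 0.41 at 8 h (difference 1.88 ± 0.55, adjusted p = 0.028), so its fall was smaller at 16 h.

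Against 24 h, the effect at 16 h differed for 397 genes (3.07%), being higher for 212 and lower for 185. Without fed library 2 at 16 h the count was 158. Among the highest by rule were Orm2, an acute phase glycoprotein (difference 4.06 ± 1.04), and Arrdc3, an arrestin-related adaptor (difference 3.86 ± 0.69). Orm2 and Arrdc3 did not pass at 16 h itself. The lowest were Fam222a (-4.03 ± 0.89), Got1, the cytosolic aspartate aminotransferase (-3.67 ± 0.84, adjusted p = 0.018), and Ccdc152 (-3.37 ± 0.71). Ccdc152 fell at 16 h (-1.87 ± 0.52) and did not pass without fed library 4 (edgeR adjusted p = 0.074). Got1 varied between libraries at 16 h, with 82.8, 461, 391 and 43.6 CPM in fasted libraries, against 795, 816, 233 and 399.8 CPM in fed ones. PPARα targets were among those higher at 16 h, 4 of 15 with none lower. Over all 12942 genes tested, 212 were higher and 185 lower. Retsat averaged 60.2 ± 12.1 CPM in fasted and 5.32 ± 2.16 CPM in fed nuclei at 16 h and 72.7 ± 20.6 CPM in fasted and 21.7 ± 9.24 CPM in fed nuclei at 24 h (difference 1.73 ± 0.43, adjusted p = 0.028). Acot1 (difference 2.402 ± 0.50), Tsku (2.71 ± 0.55) and Slc27a2 (1.05 ± 0.27) followed the same order. Acly had a lower effect at 16 h (-2.72 ± 0.29) than at 24 h (-0.85 ± 0.27; difference -1.87 ± 0.38, adjusted p = 0.0099), as did Mvd (-4.71 ± 0.37 at 16 h and -2.88 ± 0.35 at 24 h).

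Several genes had an effect at 16 h that differed from both neighbouring times. Bhmt averaged 757 ± 398 CPM in fasted and 251 ± 37.8 CPM in fed nuclei at 16 h, 466 ± 124.6 CPM in fasted and 920.1 ± 167 CPM in fed nuclei at 8 h and 256 ± 96.2 CPM in fasted and 712 ± 429 CPM in fed nuclei at 24 h. Its effect was 1.59 ± 0.36 at 16 h, against -0.98 ± 0.36 at 8 h and -1.47 ± 0.36 at 24 h, and both differences passed (adjusted p = 0.0022 and 0.0024). Cpox likewise had 1.06 ± 0.14 at 16 h, against 0.17 ± 0.14 at 8 h and 0.13 ± 0.14 at 24 h (adjusted p = 0.0044 and 0.011). Ulk1 had a negative estimate at 16 h between positive estimates at 8 h and 24 h (0.58 ± 0.19 at 24 h, adjusted p of the difference = 0.016). These genes were picked out after their values were seen.

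**Figure D5:**
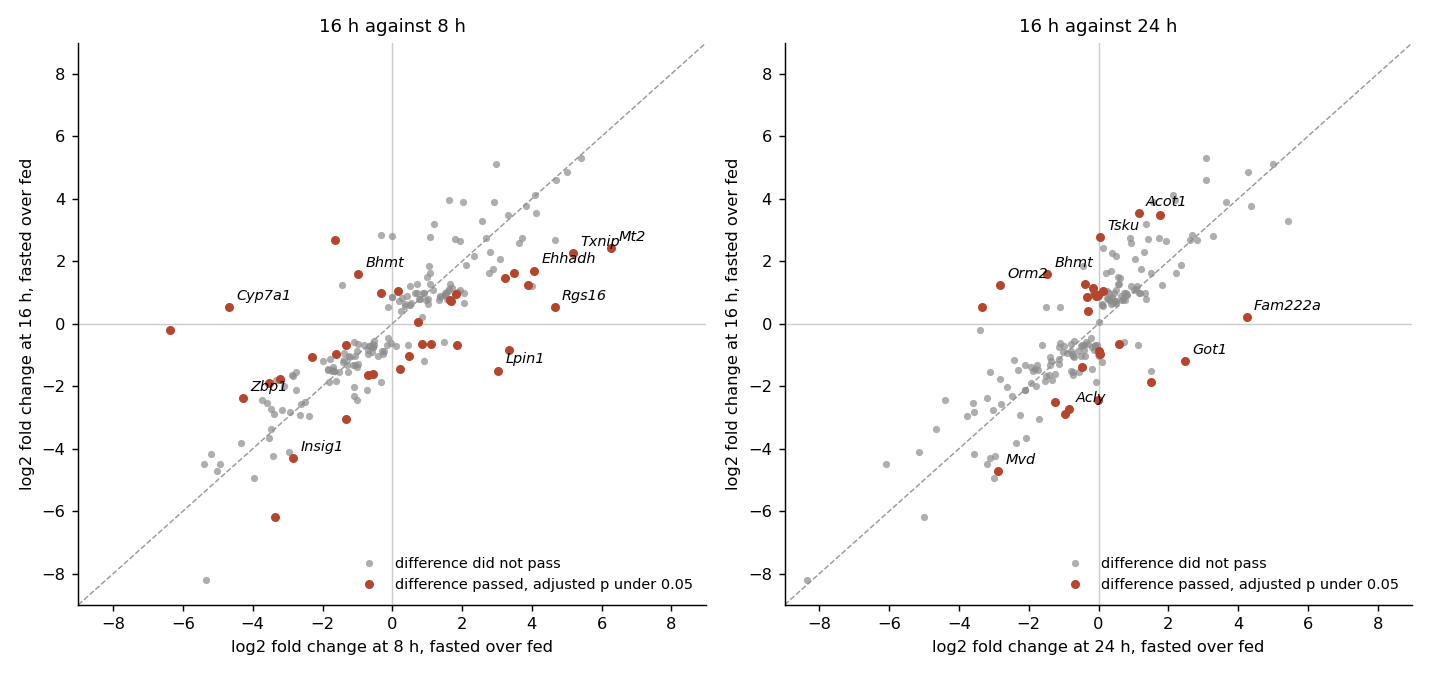
Log2 fold change at 16 h (vertical axis) against that at 8 h (left) and 24 h (right) for the genes named in the text, with those whose difference passed in red and a dashed line where the effects are equal. Txnip, Mt2 and Ehhadh lie far below the line against 8 h, Tsku and Bhmt above it against 24 h.

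The fasting effect in hepatocyte nuclei was also set against that in macrophage nuclei at 16 h, with all 64 libraries of tagged nuclei in the fit. Few differences passed: 75 of 14011 (0.535%), 57 with a higher effect in hepatocyte nuclei and 18 with a lower effect, and a fit to the 16 libraries compared called 4. The count was 130 without fasted library 2, 30 without fasted library 3, and 40, 31 and 37 without fed libraries 1, 2 and 4 in turn. Macrophage nuclei themselves had 780 genes higher and 946 lower after 16 h of fasting. A difference that did not pass does not show that the effects were alike. The highest differences by rule were Ppfia4, a scaffold protein of the liprin family (2.87 ± 0.54 in hepatocyte and -0.64 ± 0.37 in macrophage nuclei, adjusted p of the difference = 0.0052), Srcin1, an inhibitor of Src (1.51 ± 0.30 and -1.002 ± 0.25, adjusted p = 1.82e-04), and Cbfa2t3, a transcriptional corepressor (2.29 ± 0.36 and 0.06 ± 0.34, adjusted p = 0.021). Ppfia4 in hepatocyte nuclei was highest in fasted library 3, with 0.442, 0.357, 7.25 and 1.63 CPM in fasted libraries, against 0.379, 0.299, 0.368 and 0.314 CPM in fed ones; at 16 h it did not pass without fasted library 3 (edgeR adjusted p = 0.2). Cbfa2t3 stood at 13.9, 14.1, 88.8 and 29.0 CPM in fasted libraries, against 6.68, 7.29, 7.86 and 7.98 CPM in fed ones in hepatocyte nuclei, with all fasted libraries above all fed libraries and library 3 again the highest.

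The lowest differences were Fmn1, an actin nucleator, Hsd17b6, a steroid dehydrogenase, and Cdh18, a cadherin. Fmn1 stood at 61.2, 35.1, 25.9 and 26.5 CPM in fasted libraries, against 238, 282, 149 and 207 CPM in fed ones in hepatocyte nuclei (effect -2.55 ± 0.28), while macrophage nuclei averaged 347 ± 67.3 CPM in fasted and 369 ± 33.3 CPM in fed macrophage nuclei (effect -0.09 ± 0.26, adjusted p of the difference = 1.40e-04). Hsd17b6 had an effect of -1.33 ± 0.35 in hepatocyte and 1.07 ± 0.35 in macrophage nuclei (adjusted p = 0.0097), and Cdh18 of -2.42 ± 0.40 and -0.25 ± 0.39 (adjusted p = 0.048). For genes of lipid metabolism the effects in both kinds of nuclei are given side by side. Fdps had -4.50 ± 0.41 in hepatocyte and -4.19 ± 0.40 in macrophage nuclei, Fasn -2.76 ± 0.50 and -3.61 ± 0.52, and Cyp4a14 4.88 ± 0.67 and 4.51 ± 0.65, and none of these 3 differences passed. In macrophage nuclei Cyp4a14 averaged 502 ± 174 CPM in fasted and 22.0 ± 17.2 CPM in fed macrophage nuclei, and how much of that RNA came from hepatocytes was not tested.

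Pools of unpurified liver nuclei, 1 per condition from 4 mice each, have no replicate and no test. Their CPM are scaled by total counts without TMM factors, unlike those of the purified libraries. In the pools of the hepatocyte-tag line, Fdps had 2.59 CPM fasted and 45.04 CPM fed, Fasn 64.9 CPM fasted and 252 CPM fed, and Acly 80.1 CPM fasted and 284 CPM fed, the same direction as in purified nuclei. Cyp4a14, Plin4 and Angptl4, which rose in purified nuclei, were closer together. Cyp4a14 had 1170 CPM fasted and 464 CPM fed, Plin4 142 CPM fasted and 143 CPM fed, and Angptl4 65.5 CPM fasted and 46.1 CPM fed. The pools of the macrophage-tag line had a wider gap for the same genes, with 1128 CPM fasted and 43.8 CPM fed for Cyp4a14, 61.7 CPM fasted and 8.44 CPM fed for Plin4, and 115 CPM fasted and 9.28 CPM fed for Angptl4. The fed pool of the hepatocyte-tag line thus lay above all 4 purified fed libraries for Cyp4a14, Plin4 and Angptl4.

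The authors' deposited table holds log2 fold changes and adjusted p-values at 16 h for 4745 genes. By the authors' deposited table, 1027 genes had an adjusted p under 0.05, of which 618 were higher and 409 lower in fasted nuclei. Of 4677 genes found in both the authors' deposited table and the test above, 911 were called in both, out of 1083 called here. The median absolute difference between the log2 fold changes of the authors' deposited table and those given here was 0.00175, and the largest was 0.308.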

How the data were processed

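Nuclear RNA of mouse liver was sequenced as paired reads of 50 bases after affinity purification of tagged nuclei, with no selection for polyadenylated RNA, per the labels' protocols. The authors deposited the raw counts of reads on each gene in 1 table of 80 libraries, and STAR 2.4.2a, DESeq2 1.24.0 and build mm10 are named in the submitters' processing notes without their roles. No source used here gives the counting tool, or says whether introns were counted and strand was used. The authors also deposited log2 fold changes and adjusted p-values for selected genes, which are compared at the end of the results, and 64 per-library columns of those tables were not used. Symbols, positions and promoters come from the count table and RefSeq.

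Genes passed with edgeR 4.0.16 filterByExpr (count minimum 10, total minimum 15) and were tested with the robust quasi-likelihood F-test, TMM scaling and Benjamini-Hochberg adjustment over all genes (adjusted p under 0.05), under R 4.3.3 with limma 3.58.1. The 8 groups of 4 hepatocyte libraries entered 1 fit without covariates, and contrasts gave fasted minus fed at 16 h, its difference from 8 h and 24 h, and, in a fit to all 64 tagged libraries, from macrophage nuclei. The SE is the absolute log2 fold change divided by the square root of F. CPM of macrophage nuclei came from the fit to all 64 tagged libraries, and CPM of pools from total counts without TMM factors. The fits were tested on simulated data. Alternatives were RLE scaling, no filter on low counts, DESeq2 1.42.0, a fit to the compared libraries alone, the run of library numbers as a term, each of the 8 libraries left out and, added after the data were seen, fasted and fed library 3 left out together.

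Named were the 10 highest and 10 lowest called genes at 1 CPM or more without overlap, 39 panel genes, up to 4 called genes with the smallest p of each of 64 lists, and the 3 highest and 3 lowest of each tested difference. Genes with model names, such as Gm or Rik symbols, were left out of the highest and lowest. Of the 238 genes that the rule takes, 157 are named in the text and 81 are not reported here. Beside this rule, 31 genes, such as Srebf2, Hmgcs1, Insig2 and Ifit1, were chosen after their values were seen. The samples, gene lists and tests were all chosen with earlier results of these data known. Replicate numbers follow the order of deposit and pair no samples.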

Additional observations from a re-analysis of the deposited data

Results flagged for a closer look

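A library was singled out where its gap to the nearest library of its group was an unusually large share of the group's range (above Dixon's critical value for 4 libraries). Of 376 groups examined, fasted or fed for each of the 188 genes named, 26 held such a library, and chance alone gives about 1 in 20. Fasted library 1 lay below the rest for Cyp4a14 (530.3 CPM, others 1308 to 1450) and Acly (59.4 CPM, others 74.7 to 76.7). Fasted library 2 lay above the rest for Irs2 (191 CPM, others 111 to 122). Fasted library 3 lay above the rest for Npnt (83.1 CPM, others 10.7 to 15.3), Insig2 (1374 CPM, others 383 to 475), Ifit1bl2 (14.0 CPM, others 3.31 to 4.53), Thrsp (8.24 CPM, others 0.529 to 1.33), Ifit1 (2.18 CPM, others 1.06 to 1.22), Anln (3.13 CPM, others 0.765 to 0.994), Treh (9.46 CPM, others 0.459 to 0.939), Stab1 (55.1 CPM, others 17.9 to 19.9), Dgat1 (71.4 CPM, others 22.6 to 26.9) and Orm2 (5.65 CPM, others 0.240 to 0.718). Fasted library 4 lay below the rest for Haao (203 CPM, others 259 to 262) and Atf5 (71.8 CPM, others 108 to 113). Fed library 1 lay above the rest for Aqp4 (0.805 CPM, others 0.299 to 0.314) and Parp9 (86.2 CPM, others 70.9 to 71.4). Fed library 2 lay above the rest for Chrna4 (60.0 CPM, others 17.7 to 22.6). Fed library 3 lay above the rest for Ifit1 (5.22 CPM, others 4.12 to 4.31), Edem1 (195 CPM, others 131 to 136), Atp5h (16.3 CPM, others 12.8 to 13.1) and Marco (1.17 CPM, others 0.419 to 0.521), and below the rest for Idi1 (17.9 CPM, others 45.9 to 50.9) and Acadm (64.1 CPM, others 111 to 115). Fed library 4 lay above the rest for Ldha (44.9 CPM, others 30.2 to 30.9) and Pdk4 (23.8 CPM, others 9.03 to 10.99). The cause of these gaps was not tested.

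Among the named genes, the 16 h effect differed from that at 8 h past the threshold for 35, and the values in parentheses are the 16 h minus the 8 h log2 fold change. As above, higher and lower refer to the signed log2 fold change. Fat oxidation and fatty acid handling genes had a lower effect at 16 h: Ehhadh (-2.37), Pex11a (-1.76), Slc22a5 (-1.88), Pdk4 (-2.63), Cpt1a (-0.96), Slc27a2 (-0.89) and Hsd17b4 (-0.86). In sterol and bile acid metabolism, the effect was lower for Insig1 (-1.47), Hmgcs1 (-1.72), Abcg5 (-1.78), Abcg8 (-2.54) and Ggps1 (-0.69), and higher for Pmvk (1.63) and Cyp7a1 (5.22). Stress and signalling genes with a lower effect at 16 h were Mt2 (-3.85), Txnip (-2.90), Lpin1 (-4.54), Maff (-4.19), Rgs16 (-4.14) and Ulk1 (-1.50). Interferon response genes had a less negative log2 fold change at 16 h than at 8 h: Zbp1 (1.88) and Stat2 (0.65). Other genes had a lower effect, Ptgds (-2.82), Slc38a3 (-0.94) and Fetub (-1.06), or a higher effect, Cpox (0.89), Ppox (0.65), Rgn (1.46), Axin2 (1.29), Bhmt (2.57), Cyp2c69 (6.17) and, of the Ifit family, Ifit1bl2 (4.32). Of markers of other cells, the difference was Pkhd1 (1.23) for bile ducts, Reln (-1.70) for stellate cells and Siglec1 (-1.52) for macrophages.

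Against 24 h the effect differed for 26 of the named genes (16 h minus 24 h log2 fold change in parentheses). Sterol and fatty acid synthesis genes had a more negative log2 fold change at 16 h than at 24 h: Mvd (-1.83), Lss (-1.25), Mvk (-1.93), Acly (-1.87), Srebf2 (-0.92) and Scap (-0.89). Genes of fatty acid use had a higher effect: Retsat (1.73), Acot1 (2.402), Aldh3a2 (1.29) and Slc27a2 (1.05). Among genes of secreted proteins the effect was higher for Tsku (2.71), Inhbe (1.67) and Orm2 (4.06). Of the rest it was higher for Cpox (0.93), Bhmt (3.07), Fosl2 (0.94), Rps9 (0.98), Rpl3 (1.16), Parp9 (0.73) and Arrdc3 (3.86), and lower for Cdh18 (-2.41), Pygl (-1.003), Ulk1 (-1.21), Got1 (-3.67), Ccdc152 (-3.37) and Fam222a (-4.03).

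The effect in hepatocyte nuclei differed from that in macrophage nuclei for 9 of the named genes (hepatocyte minus macrophage log2 fold change in parentheses), being higher for Ppfia4 (3.51), Srcin1 (2.51), Cbfa2t3 (2.23) and Parp9 (0.77), and lower for Fmn1 (-2.46), Hsd17b6 (-2.40), Cdh18 (-2.17), Pltp (-1.90) and Pde4b (-1.25).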

How the results depend on the processing

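No paired analysis was possible because the titles give no replicate numbers shared between groups. The count of 2343 genes called at 16 h (1236 higher, 1107 lower) was 885 (399 higher, 486 lower) in a fit to the 8 libraries alone. Of the 885, 869 were among the 2343. The main fit takes the spread from the hepatocyte libraries of all times together, and the fit to the 8 from those libraries only. The count was 1534 (767 higher) without fasted and fed library 3 together. With 1 library left out it was between 1485 (without fasted library 3) and 2540, with 742 to 1367 higher. The difference from 8 h (1178 genes) had 645 calls in the fit to the compared libraries. The difference from 24 h (397) had 215 there, 794 with DESeq2, and 158 to 576 with 1 library left out. The difference from macrophage nuclei (75) had 4 in the compared libraries, 48 without the filter on low counts, 149 with DESeq2, and 30 to 130 with 1 library left out. The cause of these shifts was not tested.

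Of the 188 named genes, none lost or gained its call under RLE scaling, without the filter, with DESeq2 or with the library-number run as a term, 19 lost it in the fit to the 8 libraries alone and 21 without both libraries 3. All reversals were of genes that did not pass at 16 h. Without both libraries 3 the log2 fold change was -0.89 for Orm2, -0.030 for Ggps1 and -0.14 for Fam222a. With 1 library left out it ran between -0.68 and 1.59 for Orm2, -0.014 and 0.91 for Arrdc3, -0.21 and 1.15 for Rgs16, -0.025 and 0.10 for Ggps1, -0.093 and 0.46 for Fam222a, and -1.02 and 0.26 for Cyp2c69. Genes under about 1 CPM rest on few reads, and their fold changes depend on the prior count.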
